A study of Mus musculus with 11 samples.

Results

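Of 11 libraries of chromatin from glands of the mouse stomach, 4 are described here: the 2 H3K27ac libraries from glands with 2 floxed Arid1a alleles and the 2 H3K27ac libraries from glands with 1 floxed allele. They were chosen by antibody and genotype alone. All 4 came from mice that also carried Atp4bCre and Rosa26NICD. Atp4bCre places the Cre recombinase under a promoter of parietal cells, the acid-secreting cells of the gland, and Rosa26NICD supplies the intracellular part of Notch, its active form. The 1-allele group had the genotype Atp4bCre; Rosa26NICD; Arid1aflox/+ and the 2-allele group Atp4bCre; Rosa26NICD; Arid1aflox/flox, which the titles call a homozygous deletion. Sex, age and strain are not given in the sources used here. The chromatin was that of the whole epithelial pellet, in which cells without Cre are also present, and pellets were pooled until there was enough material, so p-values measure the spread between libraries, which may be technical. As context, peaks were also read in 2 H3K27ac libraries each of NICD glands (Atp4bCre; Rosa26NICD, with no floxed Arid1a allele) and of wild-type glands, and in 3 H3K4me3 libraries. An H3K4me3 library of this context carried floxed Arid1a, but its title names 1 allele while the genotype field names 2, and its allele number is open. In pooled epithelium, fewer cells with a mark and less of the mark per cell cannot be told apart.

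Acetylation of lysine 27 of histone H3 (H3K27ac) marks promoters and enhancers that are in use, while trimethylation of lysine 4 (H3K4me3) marks mainly promoters. Arid1a encodes a DNA-binding subunit of the canonical BAF complex, a SWI/SNF remodeller that moves nucleosomes and keeps enhancers and promoters accessible. ARID1A is among the most frequently mutated chromatin genes in gastric cancer, and the series was titled for the role of Arid1a dosage in gastric tumorigenesis.

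Each library is a list of peaks, so a region or promoter is either called or not called, and how strongly it is marked is known only by its rank within its own list. The 1-allele lists carry a p-value for each peak. The 2-allele lists hold positions alone, and their order in the file was taken as their order of strength. Strength is given below as a percentile within the list, where 100 is the strongest peak. Peaks with a gene start at most 1 kb away are called promoter peaks, and all others distal. The merged peaks of the 4 libraries on chromosomes 1 to 19 and X (GRCm38) made 18221 regions. The headers gave 16.6 M and 9.76 M tags for 1-allele replicates 1 and 2, and for the 2-allele libraries the depth is unknown. How the 2-allele lists were made is not stated in the labels or files, so the genotype and the making of the lists cannot be told apart in any comparison below.

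The promoter sequences that carry the main findings are shown first, from RefSeq on GRCm38.p6, as the 250 bases before the gene start, 5′ to 3′ on the strand of the gene. Capitals mark every match, on either strand, to CCAAT (the box bound by the factor NF-Y), GGGCGG (bound by Sp and Klf factors), TATAAA (the TATA box), TGACTCA (bound by AP-1), TGACGT (bound by CREB and ATF factors), CACGTG (an E-box), GTGGGAA (bound by Rbpj, the DNA-binding partner of NICD), CCGGAAG (bound by Ets factors) and AGATAA (bound by Gata factors). Matches may overlap. Arid1a and Notch1 are the genes of the design. Bag1, Tmem167b and Map2k2 carried strong promoter peaks in both 2-allele and no peak in either 1-allele library. Frmd4b showed the opposite pattern, and Camta1 and Inpp1 ranked higher in the 1-allele lists.
Arid1a: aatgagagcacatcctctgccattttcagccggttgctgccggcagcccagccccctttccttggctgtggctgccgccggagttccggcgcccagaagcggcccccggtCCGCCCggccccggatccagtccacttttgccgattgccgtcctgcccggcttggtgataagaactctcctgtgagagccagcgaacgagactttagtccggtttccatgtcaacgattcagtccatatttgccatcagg
Notch1: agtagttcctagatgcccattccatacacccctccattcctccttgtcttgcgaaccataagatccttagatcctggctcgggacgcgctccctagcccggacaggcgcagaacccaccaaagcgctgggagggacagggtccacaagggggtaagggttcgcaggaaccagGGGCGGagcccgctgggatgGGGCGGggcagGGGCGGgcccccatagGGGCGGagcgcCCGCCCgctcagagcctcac
Bag1: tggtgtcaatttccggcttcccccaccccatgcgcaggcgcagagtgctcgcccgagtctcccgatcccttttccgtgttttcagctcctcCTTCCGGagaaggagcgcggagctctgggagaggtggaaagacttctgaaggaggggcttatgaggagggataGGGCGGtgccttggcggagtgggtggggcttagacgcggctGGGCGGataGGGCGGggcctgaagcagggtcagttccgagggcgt
Tmem167b: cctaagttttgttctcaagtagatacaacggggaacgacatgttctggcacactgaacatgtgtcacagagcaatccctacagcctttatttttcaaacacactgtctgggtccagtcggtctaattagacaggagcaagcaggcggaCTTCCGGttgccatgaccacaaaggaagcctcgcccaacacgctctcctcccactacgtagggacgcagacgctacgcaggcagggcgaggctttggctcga
Map2k2: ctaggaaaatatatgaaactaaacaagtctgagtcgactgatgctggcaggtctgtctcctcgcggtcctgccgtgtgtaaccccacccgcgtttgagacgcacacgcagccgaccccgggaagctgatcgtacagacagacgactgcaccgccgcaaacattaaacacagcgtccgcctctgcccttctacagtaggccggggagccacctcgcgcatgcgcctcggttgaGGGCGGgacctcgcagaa
Frmd4b: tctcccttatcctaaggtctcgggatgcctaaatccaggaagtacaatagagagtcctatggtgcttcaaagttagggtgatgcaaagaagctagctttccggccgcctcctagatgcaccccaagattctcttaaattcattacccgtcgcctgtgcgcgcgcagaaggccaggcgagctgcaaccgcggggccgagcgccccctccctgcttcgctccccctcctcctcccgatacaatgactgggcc
Camta1: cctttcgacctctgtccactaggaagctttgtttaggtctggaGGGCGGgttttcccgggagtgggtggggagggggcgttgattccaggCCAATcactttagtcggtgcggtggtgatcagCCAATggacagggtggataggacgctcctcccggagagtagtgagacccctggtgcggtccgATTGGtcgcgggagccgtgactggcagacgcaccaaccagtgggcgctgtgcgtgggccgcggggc
Inpp1: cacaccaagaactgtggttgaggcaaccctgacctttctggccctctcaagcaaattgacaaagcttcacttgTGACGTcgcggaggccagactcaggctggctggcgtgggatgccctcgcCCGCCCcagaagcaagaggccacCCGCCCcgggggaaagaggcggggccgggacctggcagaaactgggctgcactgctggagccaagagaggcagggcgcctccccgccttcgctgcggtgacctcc
The Arid1a sequence lies at chr4:133756770-133757019, that of Notch1 at chr2:26503823-26504072, that of Bag1 at chr4:40948295-40948544 and that of Tmem167b at chr3:108562467-108562716. That of Map2k2 lies at chr10:81105665-81105914, that of Frmd4b at chr6:97617658-97617907, that of Camta1 at chr4:151861769-151862018 and that of Inpp1 at chr1:52817689-52817938. Of these, Arid1a, Notch1, Bag1, Tmem167b, Frmd4b, Camta1 and Inpp1 are on the minus strand and Map2k2 is on the plus strand. Bag1 and Tmem167b each held a CCGGAAG match, read as CTTCCGG on the strand shown, and none of the 9 motifs was found in these letters of Frmd4b. Frmd4b has other annotated starts, not shown. The start at 97487820, with a peak in 1-allele replicate 2 alone, held GGGCGG and CCAAT matches. The start at 97459286, with no peak in the 4 libraries, held TATAAA and TGACTCA matches.

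Arid1a itself (chromosome 4, 133679008 to 133756769) has 2 annotated starts. At the upstream start, 133756769, a peak was called in both 2-allele and in neither 1-allele library. At the downstream start, 133753985, a peak was called in both 2-allele libraries and in 1-allele replicate 1. The strongest promoter peak of the gene stood at percentiles 76.2 and 75.3 of the 2-allele lists and at 17.6 in 1-allele replicate 1, with none in 1-allele replicate 2. A promoter peak does not show whether the floxed part of the gene was removed. Notch1 (chromosome 2, 26457902 to 26503822), whose receptor is the source of NICD, carried a promoter peak at percentiles 33.7 and 1.8 of the 2-allele lists and none in the 1-allele lists. The second value is among the weakest peaks of its list. Atp4b (chromosome 8, 13386209 to 13396778), a subunit of the acid-secreting proton pump and the source of the Cre promoter, was called in 1-allele replicate 1 alone of the 4, at percentile 15.8. Hes1, a classical Notch target, had no promoter peak in any of the 4.

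Glands with 2 floxed alleles gave more peaks than glands with 1. The 2-allele lists held 15353 and 14364 peaks and the 1-allele lists 5148 and 7594, so the groups did not overlap. The means were 14858.5 ± 699 and 6371 ± 1730 (SD, n = 2 each). The difference of 8487.5 peaks had a two-sided exact permutation p of 0.333 (n = 2 per group, adjusted p = 0.444 over 4 measures), which is the smallest p that this design allows. Peaks covered 7.32 and 6.85 Mb in the 2-allele and 1.44 and 2.83 Mb in the 1-allele libraries (exact permutation p = 0.333, n = 2 per group, adjusted p = 0.444). The shape of the lists differed too: median peak widths were 410 and 411 bp in the 2-allele lists and 247 and 332 bp in the 1-allele lists, while the widest peaks were 1774 and 1759 bp against 3867 and 3862 bp. The part of the making of the lists in these counts was not tested. Within the 1-allele group, replicate 1 had more tags and fewer peaks than replicate 2, and the redundant rates were 0.14 and 0.31. The part of depth in the list lengths was not tested.

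Most 1-allele peaks were also called with 2 floxed alleles, while most 2-allele peaks were not called with 1. Of the 1-allele peaks, 86.2% and 88.4% overlapped a peak of a 2-allele library (mean over both libraries of the other group), against 35.3% and 36.9% of the 2-allele peaks. The means were 87.3% ± 1.6 and 36.1% ± 1.1 (SD, n = 2 each, exact permutation p = 0.333, adjusted p = 0.444). The 1-allele lists held fewer peaks, which limits how many 2-allele peaks they can overlap. These shares are therefore not independent of the peak counts. The difference in the shares was smaller between lists of equal length. With each list cut to the number of peaks of the shorter 1-allele list, keeping the strongest, the shares were 60.5% and 59.1% of the 2-allele peaks and 60.6% and 65.7% of the 1-allele peaks.

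Which kind of region filled the lists depended on how far down they were read. In the full lists 28.0% and 26.8% of 2-allele peaks and 26.8% and 21.2% of 1-allele peaks were distal. The groups differed by 3.38 points, less than the spread between the 1-allele libraries (means 27.4% ± 0.86 and 24.0% ± 4.0, SD, n = 2 each, exact permutation p = 0.667, adjusted p = 0.667). Cut to equal length, the 2-allele lists held 11.3% and 12.3% distal peaks and the 1-allele lists 26.8% and 18.5%. The difference was then −10.8 points and the groups did not overlap (exact permutation p = 0.333, n = 2 per group, the smallest p possible). The strongest 2-allele peaks were thus mostly at promoters. In 2-allele replicate 1, distal peaks made up 11.5% of the strongest 10% class of the list and 50.8% of the weakest 10% class. In 1-allele replicate 1 they made up 53.6% of the strongest 10% class and 27.6% of the weakest, and in 1-allele replicate 2, 33.4% and 32.1%.

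Many of the strong distal 1-allele peaks lay where all 3 H3K4me3 libraries also had a peak. Of the 276 distal peaks in the strongest 10% class of 1-allele replicate 1, 57 did not overlap a peak in all 3 H3K4me3 lists, and of 254 in replicate 2, 67 did not. Of these strongest distal peaks, 50.4% and 51.4% (replicate 1) and 57.5% and 58.7% (replicate 2) were called in 2-allele replicates 1 and 2. Without distal regions that carry H3K4me3 in all 3 lists, the full lists held 26.4% and 24.97% distal peaks in the 2-allele and 20.7% and 17.1% in the 1-allele group. The difference was then 6.81 points and the groups did not overlap (exact permutation p = 0.333, n = 2 per group). The equal-length distal shares were 7.96% and 8.69% in the 2-allele and 20.7% and 12.8% in the 1-allele lists, a difference of −8.43 points.

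**Figure D1:**
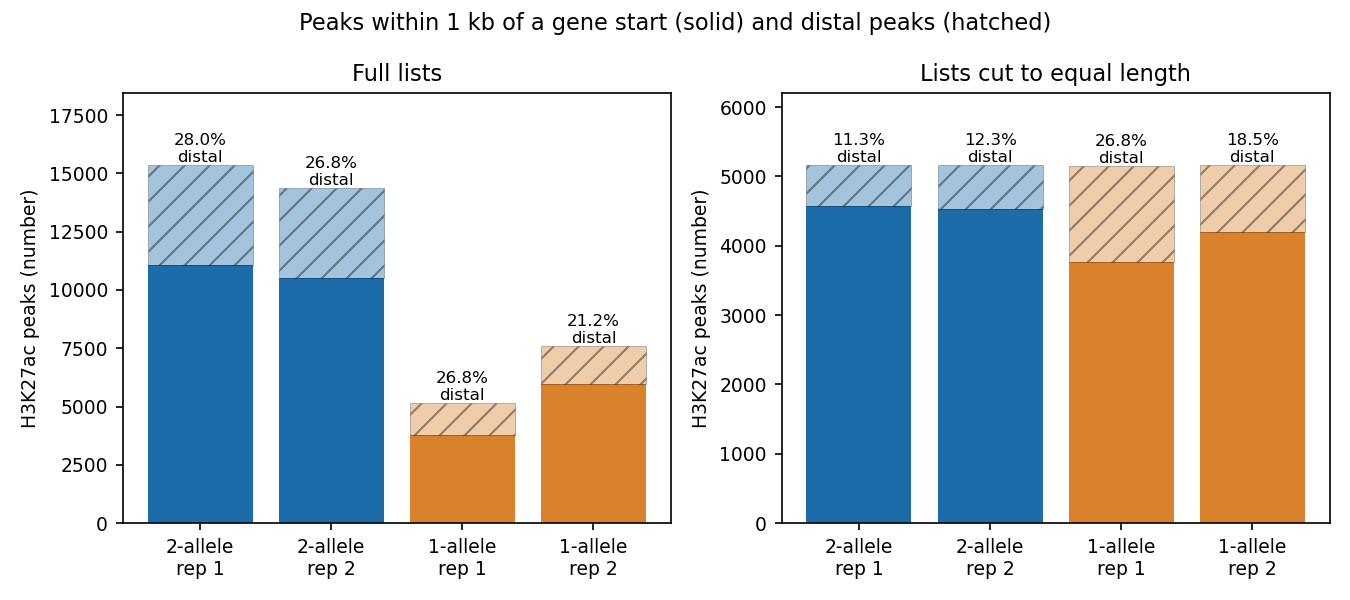
H3K27ac peaks on chromosomes 1 to 19 and X in each library, for the full lists (left) and for lists cut to equal length (right). Solid bars count promoter peaks, hatched bars distal peaks, and the distal share stands above each bar: it is 21.2% to 28.0% in the full lists and, at equal length, 11.3% and 12.3% in the 2-allele against 26.8% and 18.5% in the 1-allele lists.

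The gap between promoters and distal regions differed by direction. Among 1-allele peaks, promoters were nearly always called with 2 floxed alleles, and distal regions much less often. Of the promoter peaks of 1-allele replicate 1, 97.2% and 95.9% were called in 2-allele replicates 1 and 2, against 60.1% and 55.5% of its distal peaks. For 1-allele replicate 2 the shares were 95.7% and 93.7% of promoters and 66.7% and 63.2% of distal peaks. Averaged over 10 classes of equal strength, the gap (distal minus promoter) was −37.2 and −40.6 points for replicate 1 and −28.0 and −29.5 points for replicate 2, and it was below 0 in 10 of 10 classes for each pair of libraries. Without the distal regions with H3K4me3 in all 3 lists the gaps were −35.0, −40.9, −26.5 and −28.8 points in the same order.

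In the other direction the gap was smaller and differed by 1-allele library. Of 2-allele promoter peaks, 31.6% and 32.8% were called in 1-allele replicate 1 and 50.0% and 51.7% in replicate 2, against 18.2% and 18.8% and 24.1% and 25.6% of distal peaks. At equal strength the gap was 1.97 and −0.40 points towards 1-allele replicate 1 and −6.70 and −9.21 points towards replicate 2. It was below 0 in 2 and 5 of 10 classes towards replicate 1 and in 9 and 9 of 10 towards replicate 2. Without the distal regions with H3K4me3 in all 3 lists it was 0.055 and −2.78 points towards replicate 1 and −8.56 and −11.2 points towards replicate 2. In the strongest 10% class of 2-allele replicate 1, 81.0% of peaks were called in 1-allele replicate 1 and 93.8% in replicate 2. In the weakest 10% class the shares were 4.23% and 8.73%. These gaps share libraries across pairs and were not tested.

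**Figure D2:**
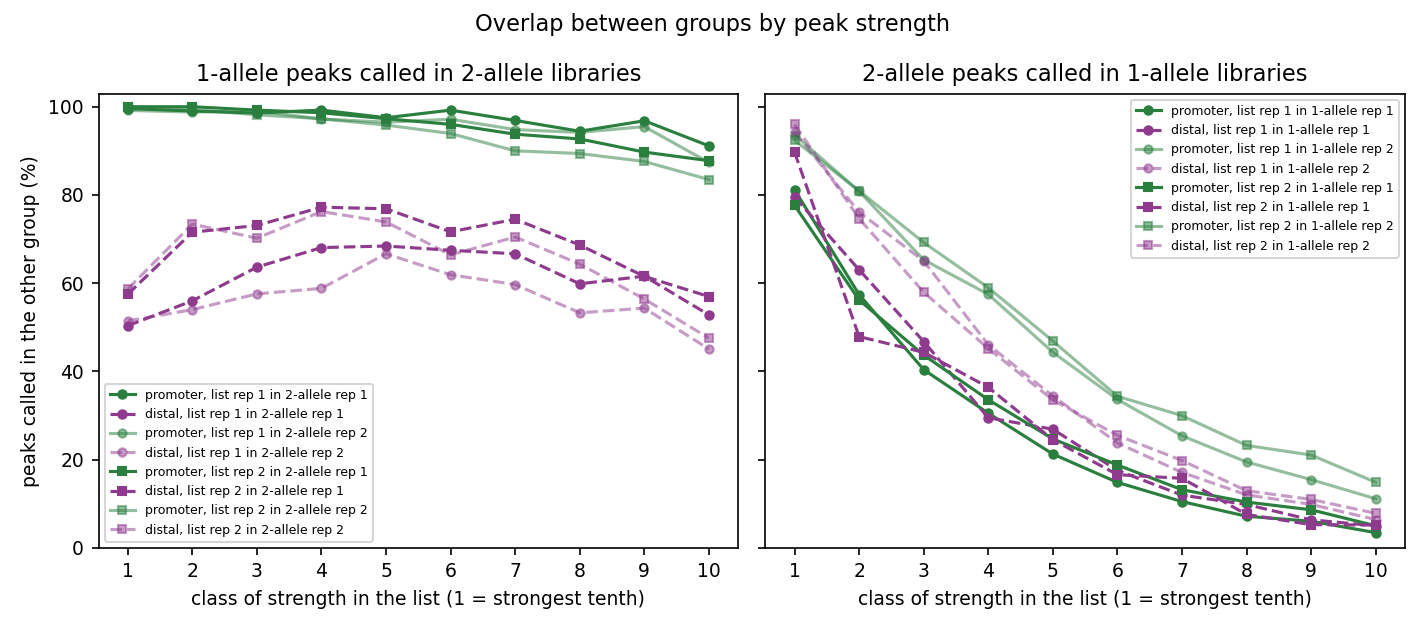
Share of the peaks of each list that were called in each library of the other group, by 10 classes of strength within the list (1 is the strongest). Solid green lines are promoter peaks and dashed purple lines distal peaks, circles and squares are list replicates 1 and 2, and pale lines are replicate 2 of the other group. On the left, distal 1-allele peaks lie below promoter peaks in all 10 classes, and on the right both kinds fall with strength, with distal peaks below promoter peaks in 9 of 10 classes towards 1-allele replicate 2 (pale) and in 2 and 5 of 10 towards replicate 1.

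Where a region was called in all 4 libraries (3287 regions), its rank was shared best within the 2-allele group. As a description across regions, Spearman's rho was 0.66 between the 2-allele replicates, 0.40 between the 1-allele replicates and 0.35 to 0.45 between libraries of different groups. Over 3297 regions, rho with the NICD lists was 0.57 to 0.67 for the 2-allele and 0.38 to 0.48 for the 1-allele lists. The points share width, base composition and mappability, and regions are not independent replicates.

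Regions that separated the groups were almost all on the 2-allele side in the full lists. A region was counted when called in both libraries of one group and neither of the other. There were 4327 such regions on the 2-allele side, 23.7% of the 18221, and 164 on the 1-allele side, 0.9%. Another 5440 were called in a single 2-allele library and no other, and 776 in a single 1-allele library. By chromosome the 2-allele share ran from 19.6% to 27.1%, with a median of 23.9%. With lists of equal length the counts were 630 (7.16% of 8795 regions) and 408 (4.64%). With the 2-allele lists cut to the length of the longer 1-allele list they were 1031 (9.12% of 11308 regions) and 337 (2.98%). Under this rule the excess on the 2-allele side held at each length, while its size moved with the length. Calls in a single library went the other way at equal length. There, 1271 regions were called in a single 2-allele library and no other, and 1946 in a single 1-allele library.

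The 2 sides differed in kind. Of the 4327 regions on the 2-allele side 27.8% were distal (exact Clopper-Pearson 95% interval 26.5% to 29.2%), and of the 164 on the 1-allele side 94.5% (89.8% to 97.5%). Of regions called in all 4 libraries 13.3% were distal. At equal length the shares were 8.57%, 55.4% and 10.9%. Intervals cover counting error over regions, not the spread between mice. The 1-allele regions at equal length fell into separate kinds. Of their 182 promoter regions, 167 (91.8%) were called in both full 2-allele lists, so these were promoters ranked lower and not missing. Of their 226 distal regions, 133 (58.8%) were in neither full 2-allele list. On the 2-allele side, 356 of 576 promoter regions (61.8%) and 39 of 54 distal regions were in neither full 1-allele list. The cut removed no peak from 1-allele replicate 1, so regions of this side could return only in 1-allele replicate 2. The full 2-allele lists regain many more peaks, so these shares cannot be compared between the sides.

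The 4327 regions on the 2-allele side were nearly all acetylated in NICD glands. A peak was called at 99.1% and 91.4% of them in the NICD libraries and at 71.3% and 66.1% in wild type. The NICD lists were longer, with 41380 and 25423 peaks against 20572 and 18344 in wild type. They were not cut to a common length, and the part of list length in this gap was not tested. Both NICD and both wild-type libraries called 2328 of the regions (53.8%), and 605 (14.0%) were in both NICD lists but in no wild-type list. No NICD and no wild-type library called 17. Of the regions called in all 4 libraries, 98.9% were in both NICD and both wild-type lists. At equal length the profile of the 2-allele side was closer to this: wild type called 95.1% and 93.5% of the 630 regions, and 8 (1.27%) were in both NICD lists and no wild-type list. Of the 4327 regions, H3K4me3 was called at 92.5% in NICD, at 66.1% in wild type and at 20.5% in the Arid1a-floxed library. These H3K4me3 lists held 39360, 17522 and 5157 peaks in the same order. The 1204 distal regions among them were called at 97.8% and 85.8% in NICD and at 60.3% and 57.8% in wild type, and 229 (19.0%) were in both NICD lists but in no wild-type list, against 3 of 54 (5.56%) at equal length. Their median distance to a gene start was 22429.5 bp, 870 lay over 10 kb and 138 over 100 kb away, and 44.4% overlapped a gene body.

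The 155 distal regions on the 1-allele side had another profile. H3K27ac was called at 86.5% and 92.3% of them in wild type and at 71.6% and 73.5% in NICD, and H3K4me3 at 85.8%, 77.4% and 85.2% in the wild-type, NICD and Arid1a-floxed libraries. All 3 H3K4me3 lists called 107 of them, and all 7 other libraries called 72. They were remote, with 72 over 100 kb from a gene start. The 6 strongest, with nearest genes Rpusd4, Rab10, Chl1, Ly6c2, Fam172a and Dpy19l1, stood at or above percentile 99.8 of both 1-allele lists and were called in all 7 other libraries, H3K4me3 included. What sets these sites apart from the 2-allele lists was not tested. Without distal regions that have H3K4me3 in all 3 lists, 57 regions remained on the 1-allele side, of which 84.2% were distal. The strongest of those lay 1750 bp from Brox, 148518 bp from Hs6st3 and 52942 bp from Frmd4a. Each still had a peak in 2 of the 3 H3K4me3 lists, the Arid1a-floxed list among them. That list called 52.1% of the 48 distal regions left on the 1-allele side. It called 0.26% of those left on the 2-allele side and 3.25% of those left in all 4 libraries.

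**Figure D3:**
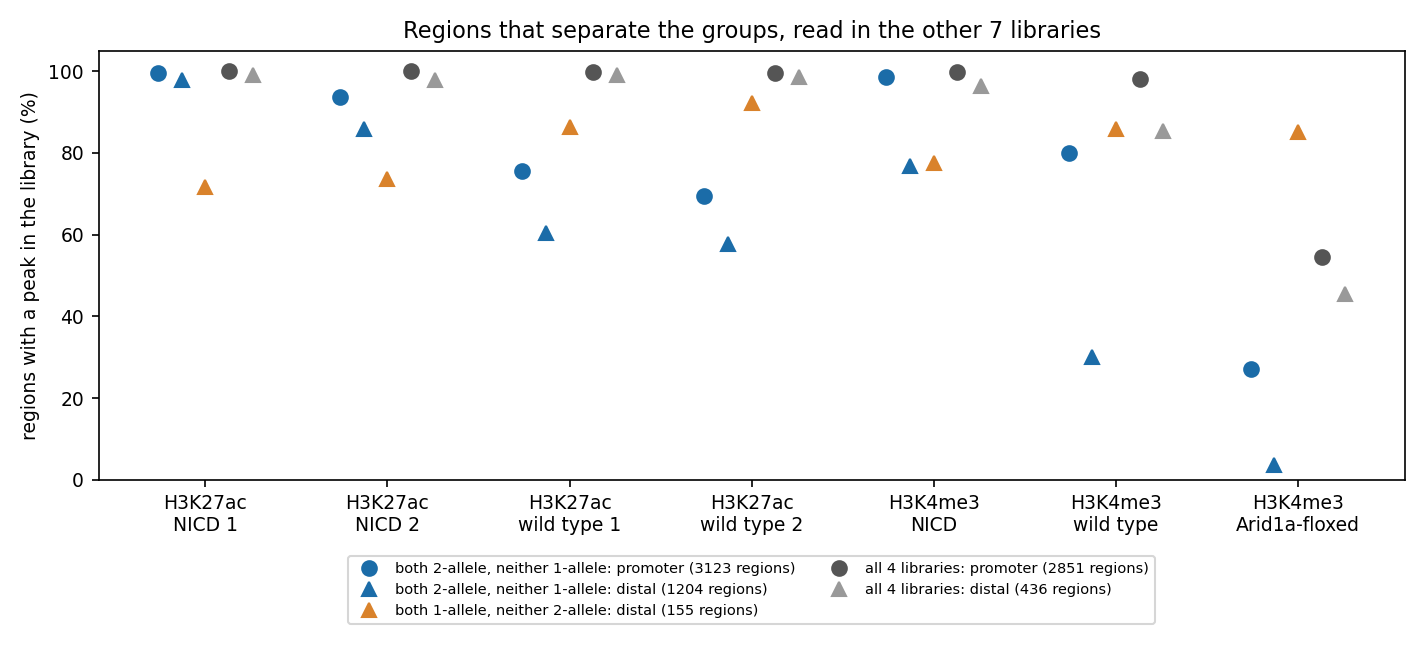
Share of separating regions with a peak in each of the 7 other libraries (circles promoter, triangles distal). Regions of the 2-allele side (blue) reach 97.8% to 99.6% in NICD replicate 1 and fall to 3.74% and 27.03% in the Arid1a-floxed H3K4me3 list, while distal regions of the 1-allele side (orange) lie between 71.6% and 92.3% in all 7.

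The strongest distal regions on the 2-allele side lay near genes of several functions. A region 8458 bp from Prx, which encodes periaxin, stood at percentiles 88.2 and 89.0 of the 2-allele lists. A region 5487 bp from Gdf3, a TGF-beta family ligand, at percentiles 84.9 and 91.3, was called in NICD replicate 1 and in no other of the 7 context libraries. A region 16373 bp from Nfkbiz, an inducible regulator of NF-κB, stood at 89.3 and 85.9. Regions 1053 bp from Cfap97, 22632 bp from Tarbp1 and 16426 bp from Klrb1b followed. The Cfap97 region lay just outside the promoter limit of 1 kb and had a peak in all 7 context libraries, H3K4me3 included. The nearest gene is a label of position and does not name a target. The 1204 distal regions had 1053 nearest genes, of which 17 had 3 or more. Fos, the AP-1 subunit, and Hmgb1, a chromatin protein, had 4 each, and Smad2, Tgif1 and Pmaip1 had 3. These genes were singled out after their values were seen. Of the 1053 genes, 242 (23.0%) had a promoter peak in all 4 libraries, 170 (16.1%) separated the groups on the 2-allele side at the promoter too, and 368 (34.9%) had none in any of the 4.

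At promoters the difference between the groups in the full lists was almost wholly on the 2-allele side. Of 21627 protein-coding genes, 9708 and 9347 had a promoter peak in the 2-allele and 3771 and 5936 in the 1-allele libraries. Genes called in both 2-allele and neither 1-allele library numbered 2674 (12.4%), and 8 (0.037%) had the opposite pattern, while 3164 (14.6%) were called in all 4. At equal length the counts were 614 (2.84%) and 176 (0.814%). Cut to the longer 1-allele list they were 847 (3.92%) and 83 (0.384%). Of the 2674 genes, 352 kept the pattern at equal length and 2620 with a window of 2.5 kb. A shorter list adds no peak, so the 352 are those whose 2-allele peaks were strong.

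The strongest promoters missing from both 1-allele lists included genes of general cell functions. Bag1, a co-chaperone of Hsp70, and its neighbour Chmp5, an ESCRT subunit for membrane sorting, share a promoter at percentiles 97.4 and 97.9 of the 2-allele lists. Ccdc62 stood at 96.1 and 96.7, Stpg2 at 97.2 and 93.8 and Tmem167b at 98.6 and 91.6. Map2k2, the kinase MEK2 of the Ras pathway, stood at 92.8 and 94.6. Med30, a Mediator subunit, stood at 88.6 and 97.5, and Ercc4, a nuclease of DNA repair, at 89.6 and 96.1. Tmem88, Naa38 and Cyb5d1 share a promoter region at 96.0 and 89.8, and Zkscan8, a zinc finger factor, stood at 94.6 and 90.8. All 12 kept the pattern at equal length, as strong peaks must when the other lists only lose peaks, and all 12 kept it with the window of 2.5 kb.

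The 8 promoters on the 1-allele side were weak in at least 1 library. Synpo, an actin-associated protein, had percentiles of 77.6 and 28.0 in the 1-allele lists, and Frmd4b, a scaffold protein of cell junctions, 12.3 and 72.1. Sspn, sarcospan of the dystrophin complex, had 53.1 and 14.2, and Sntb1, a syntrophin of the same complex, 23.1 and 8.8. Kbtbd12 stood at 29.5 and 34.6 and Elapor2 at 36.1 and 27.3. Hs3st3a1, a heparan sulfate sulfotransferase, stood at 3.3 and 27, and 4931408C20Rik at 35.4 and 15.1. Frmd4b and Kbtbd12 kept the pattern at equal length, and all 8 with the window of 2.5 kb.

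At equal length, ranks rather than presence separated promoters on the 1-allele side. Each of the 12 strongest was called in all 4 full lists. Bhlhe40, a circadian and stress-response repressor, stood at percentiles 83.0 and 86.1 of the 1-allele and 66.1 and 58.9 of the 2-allele lists. Oasl1, an interferon-induced gene, stood at 98.3 and 69.8 against 33.5 and 10.5, and Src, a tyrosine kinase, at 72.2 and 89.0 against 26.1 and 40.2. Krt19, a keratin of simple epithelia and of gastric isthmus cells, stood at 79.8 and 71.4 against 60.9 and 24.9. Mavs, the adaptor of RNA sensing, stood at 83.0 and 67.0 against 48.3 and 58.8. Zfp825, Camta1, Inpp1, Tmcc1, Mapre2, Cnep1r1 and Use1 completed the group. A percentile in a longer list is set against more weak peaks, so an equal percentile is a higher rank in the 1-allele lists.

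On the 2-allele side at equal length, 7 of the 12 strongest promoters had a weak peak in 1-allele replicate 2. Mrto4 and Emc1, neighbours with a shared promoter, stood at 99.1 and 95.1 of the 2-allele lists and at 15.8 of 1-allele replicate 2. Taf10, a subunit of TFIID, stood at 94.7 and 98.0 against 21.4, and Srsf7, a splicing factor, at 96.6 and 95.9 against 29.9. Snx5 and Mgme1 share a promoter at 90.2 and 98.5 against 16.4. Zfp729b stood at 94.4 and 99.1 against 30.9. Zfp729b and Zfp825 belong to zinc finger families with similar copies, among which reads may be split. None of these 7 had a peak in 1-allele replicate 1, which the rule requires because equal length left that list uncut. The rule also requires that any peak in 1-allele replicate 2 ranks below the cut, so its weakness is no separate result.

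**Figure D4:**
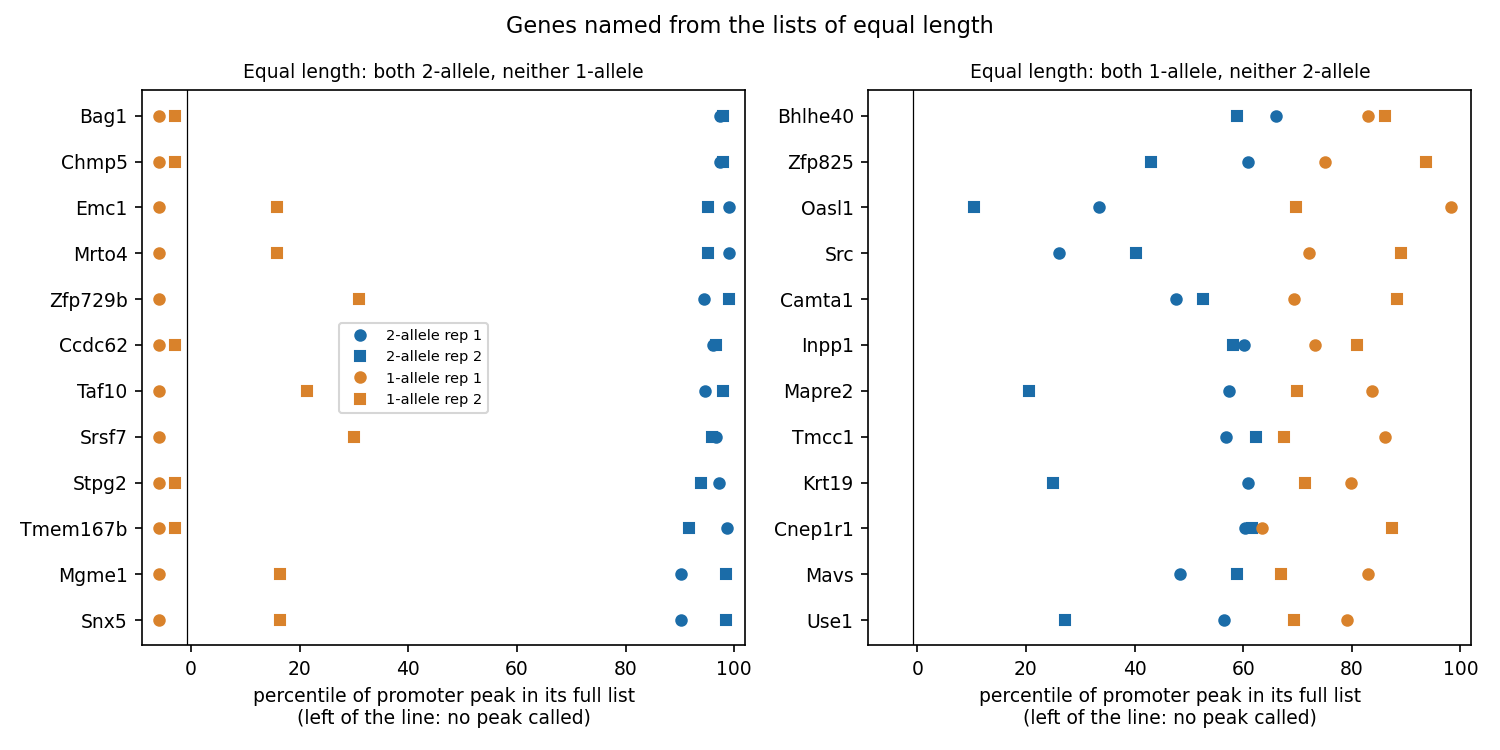
Percentile of the promoter peak in the full list of each library for the 12 strongest genes that separated the groups at equal length in each direction, with libraries that had no peak left of the line. The 2-allele genes (left) lie above 90 in both 2-allele lists and at or below 30.9 in the 1-allele lists, where the rule forces low values. The 1-allele genes (right) have a peak in all 4 lists.

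Gene lists were read against all protein-coding genes, of which 12.4% separated on the 2-allele side and 0.037% on the 1-allele side. No list had a member on the 1-allele side of the full lists. Among the 8873 genes called in both 2-allele libraries, 30.1% were called in neither 1-allele library, and their median percentile in the 2-allele lists was 67.8. The share in neither 1-allele library is given for most lists below and the median percentile for some, as descriptions.

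By the share of all members, cell cycle genes stood highest. Of 31, 21 and 19 were called in the 2-allele and 5 and 5 in the 1-allele libraries, and 12 separated the groups. They were the G1 cyclins and kinases Ccnd3, Ccne1, Ccne2, Cdk4 and Cdk6, the mitotic kinases Cdk1 and Aurka, the replication genes Pcna, Mcm3, Mcm4 and Mcm6, and the inhibitor gene Cdkn2a. Cdk4 stood at percentiles 55.0 and 60.8 and Ccne1 at 0.1 and 19.6 of the 2-allele lists. Of the 18 members called in both 2-allele libraries, 66.7% were in neither 1-allele library, but their peaks were weaker than most, with a median percentile of 45.6. At equal length no member separated the groups in either direction. With the window of 2.5 kb, Cdk6 was called in both 1-allele libraries and Ccne2 in 1 of them, so neither separated. Cdkn2c, Cdkn1b, E2f3 and Rb1, all regulators of entry into S phase, were called in all 4 libraries.

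Apoptosis genes separated in 8 of 26 cases (38.1% of the 21 called in both 2-allele libraries), among them Bad, a death-promoting Bcl-2 relative at percentiles 67.8 and 84.3, and Tnfrsf1a, the TNF receptor, both of which kept the pattern at equal length. In the p53 pathway, 27 and 27 of 30 genes were called in the 2-allele and 9 and 21 in the 1-allele libraries. Trp53, which encodes p53, Bax, Gadd45b, Sesn2, Ddb2 and Phlda3 separated the groups, 6 of 30 (22.2% of the 27 called in both 2-allele libraries), and none of the 6 did so at equal length. Trp53 stood at 41.1 and 25.3 and Bax at 26.5 and 1.3 of the 2-allele lists. Mdm4, a p53 inhibitor, stood at 97.0 and 91.1 of the 2-allele lists and at 8.5 of 1-allele replicate 2, and separated the groups at equal length alone. The 1-allele libraries differed from each other in this list, with 9 against 21 genes called, and their redundant rates, 0.14 and 0.31, differed too, whose part in it was not tested.

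Epithelial genes were called more often with 2 floxed alleles, as were all genes together (44.9% and 43.2% against 17.4% and 27.4%). Of 24 junction and keratin genes, 20 and 19 were called in the 2-allele and 11 and 8 in the 1-allele libraries, and 7 separated: Cdh1, which encodes E-cadherin, Jup, F11r, Cldn7, Krt7, Krt18 and Esrp1. These were 36.8% of the 19 called in both 2-allele libraries, and none of the 7 separated at equal length, where Krt19 fell on the 1-allele side. Cdh1 stood at 84.7 and 49.2 of the 2-allele lists. Epcam, Dsp, Tjp1, Ocln and Crb3 were called in all 4 libraries. Of 24 genes listed as gastric transcription factors, 18 and 16 were called against 6 and 9. Gata4, Foxa1, Sox2, Sox21, Ehf and Esrp1 separated the groups (40.0% of the 15 called in both 2-allele libraries), none of them at equal length. Esrp1, which also stands in the junction and keratin list, encodes a splicing regulator and not a transcription factor. Hnf4a, Klf4, Klf5, Spdef and Foxq1 were called in all 4, and Foxq1, at 88.5 and 38.9 in the 1-allele and 64.4 and 15.4 in the 2-allele lists, fell on the 1-allele side at equal length.

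Genes of the lineages of the gland gave small counts. In the list of mucous neck cells and of the metaplasia that expresses spasmolytic polypeptide (SPEM), 4 of 14 separated: Cd44, Sox9, Cftr and Clu. They were 4 of the 6 called in both 2-allele libraries, 66.7% as for the cell cycle list, and none separated at equal length. Sox9, a progenitor factor, stood at 76.6 and 55.6, and Cd44, an adhesion receptor of SPEM, at 55.0 and 74.9. For parietal cells 5 and 4 of 16 genes were called in the 2-allele and 3 and 3 in the 1-allele libraries, with Kcnq1, the potassium channel of acid secretion, and Slc9a4, a sodium-proton exchanger, separating. For chief cells, 3 and 2 of 13 promoters had a peak against 2 and 2, and for surface pit cells 4 and 1 of 14 against 2 and 1, with no separating member. Several defining markers, such as Atp4a and Muc5ac, were called in none of the 4 lists. Of markers of other cells, 4 and 3 of 24 blood cell genes were called in the 2-allele and 1 and 1 in the 1-allele libraries, with Lcp1 separating. For endothelial cells it was 2 and 2 of 14 against 1 and 1, with Flt1, a VEGF receptor, separating. No gene of the fibroblast and smooth muscle list had a peak in the 4 libraries. Of 22 genes silent in stomach, Mbp was called in each library. The part of the cell makeup of the pellets in these counts was not tested.

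Notch genes lay near the background. Of 31, 18 and 16 were called against 6 and 11, and Notch1, the ligand gene Dll1 and the co-activator gene Maml2 separated the groups, 3 of 31 against 12.4% of all genes. Maml2 stood at 74.5 and 76.7 and alone of the 3 kept the pattern at equal length. Of the 14 Notch genes called in both 2-allele libraries, 21.4% were in neither 1-allele library. Jag1, Notch2, Adam10, Adam17, Maml1 and Rfng were called in all 4, with Jag1 at 97.7, 96.5, 93.6 and 96.1. Of 29 SWI/SNF subunit genes, 19 and 21 were called against 10 and 13, and Arid2, Smarcc1, Dpf2 and Ss18l1 separated, 4 of 29. Arid2, the subunit that replaces Arid1a in the PBAF form of the complex, stood at 56.7 and 51.1 of the 2-allele lists. It did not separate with the window of 2.5 kb, where both 1-allele libraries had a peak, or at equal length, where no library did. Of 30 histone acetylation and Polycomb genes, 26 and 26 were called against 16 and 19, and Brd3 and Cbx8 separated. Of members called in both 2-allele libraries, 21.1% of 19 SWI/SNF genes and 8.33% of 24 acetylation and Polycomb genes were in neither 1-allele library.

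In the remaining lists the share of all members ranged from 1 of 18 to 8 of 32. Wnt targets and feedback genes separated in 4 of 20 cases (Sox9, Tcf7, Tcf7l2 and Znrf3, with Tcf7l2 lost at the window of 2.5 kb) and stress and secretion genes of the endoplasmic reticulum in 4 of 20. Ribosomal and housekeeping genes, which nearly all cells use, separated in 8 of 32, and 30 and 30 of them were called against 13 and 19. Oxidative phosphorylation genes separated in 4 of 28, tumour suppressors and oncogenes in 5 of 30, inflammatory genes in 5 of 30 and immediate early genes in 3 of 24. Among members called in both 2-allele libraries, the share in neither 1-allele library was 26.7% for ribosomal and housekeeping, 16.0% for oxidative phosphorylation, 22.2% for endoplasmic reticulum, 20.0% for tumour suppressor and oncogene, 17.6% for immediate early and 31.25% for inflammatory genes. This share was 50.0% for Wnt (4 of 8) and 28.6% for isthmus and stem cell genes (2 of 7). For mesenchymal transition genes it was 1 of 2. Most of these lay below the 30.1% of all genes. Median percentiles in the 2-allele lists were 74.4 for ribosomal and housekeeping and 83.6 for oxidative phosphorylation genes. They were 80.8 for endoplasmic reticulum, 82.8 for tumour suppressor, 66.3 for immediate early and 72.8 for inflammatory genes. For Wnt and isthmus genes they were 48.5 and 47.2, against 67.8 for all genes. Fosb stood at 73.9 and 70.7, and Relb, an NF-κB subunit, at 83.7 and 90.2, and both kept the pattern at equal length. Isthmus and stem cell genes separated in 2 of 13 cases (Sox2 and Stmn1) and mesenchymal transition genes in 1 of 18 (Tgfb1). Over all lists, 87 members separated in the full lists, of which 12 kept the pattern at equal length, 33 when cut to the longer 1-allele list and 81 with the window of 2.5 kb.

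**Figure D5:**
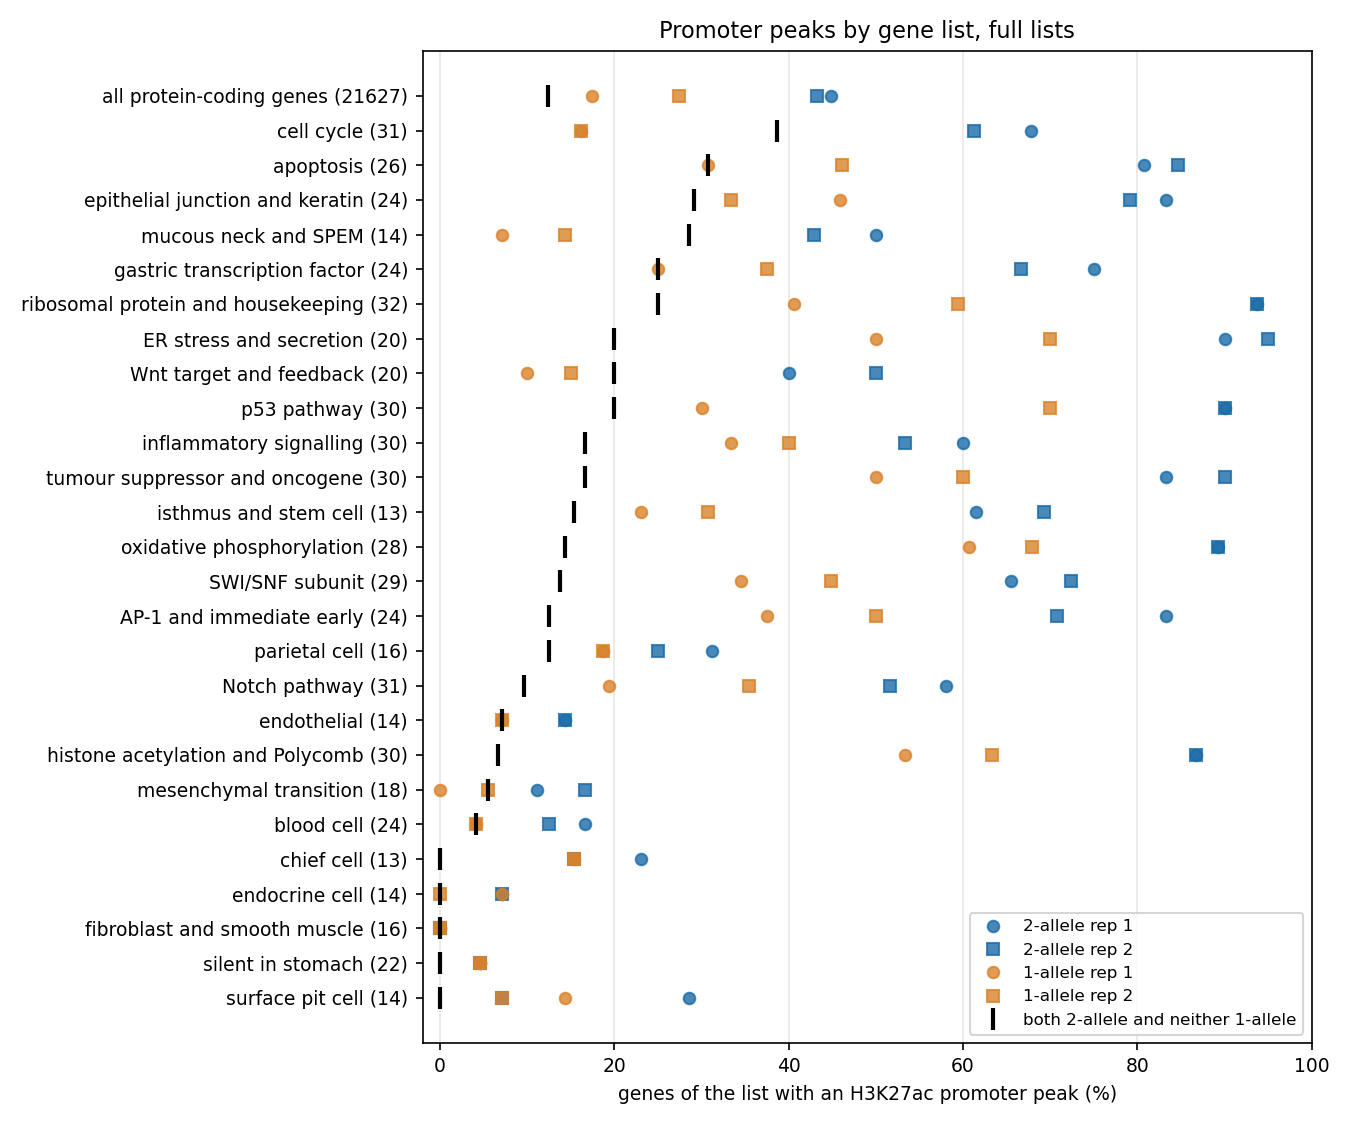
Share of each gene list (number of genes in brackets) with an H3K27ac promoter peak in each of the 4 libraries, full lists, with black marks for the share called in both 2-allele and neither 1-allele library. All protein-coding genes stand at 12.4%, cell cycle genes at 38.7%, and the lists of chief, endocrine, surface pit and fibroblast genes at 0.

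The sequence of the promoters was compared over windows of 300 bases around single annotated starts (14512 promoters). Promoters of the 2-allele side resembled those called in all 4 libraries more than the rest. Median GC content was 60.7% on the 2-allele side (1777 genes), 64.0% for genes called in all 4 (1970), 56.0% for all promoters and 49.7% for those called in none of the 4 (7846). The median number of CpG was 22, 25, 13 and 4 in the same order. CCGGAAG was found in 24.9% of the 2-allele side, 21.2% of genes called in all 4, 12.01% of all promoters and 3.53% of those in none. GGGCGG was found in 67.5%, 73.5%, 45.9% and 25.8%, and TATAAA in 6.87%, 5.84%, 14.4% and 21.1%. GTGGGAA differed little, at 6.13% on the 2-allele side and 5.93% of all promoters. At equal length CCGGAAG was in 27.8% of 407 promoters of the 2-allele side and 11.2% of 107 of the 1-allele side, whose GC medians were 62.7% and 61.0%. A match is not a binding site, and these shares were not tested.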

How the data were processed

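H3K27ac peak lists from 4 libraries were compared, with the 7 other libraries as context. The submitters' processing notes name Bowtie2, MACS2 and the build GRCm38 (mm10). Per the file headers, the 1-allele and the context lists came from MACS 2.0.10.20131216, run without a control at a q-value threshold of 0.05. These deposited lists give a pileup signal, a −log10 p-value, a −log10 q-value and a fold enrichment (ratio) for each peak, and these are the authors' values. Here they served to order the peaks of a list or to set a stricter threshold. The deposited 2-allele lists give positions only, and their caller, filter, depth and order are not given in the sources used here. A peak that is missing does not show that the mark is missing.

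Peaks on chromosomes 1 to 19 and X were merged where they overlapped by 1 bp. Gene starts came from RefSeq promoters with strand for 17273 of 21627 protein-coding genes, from the gene end with an H3K4me3 peak for 2578, and from both ends for 1776. All 564 names of the 26 gene lists were matched. Values per library were compared by two-sided exact permutation over the 6 assignments of 4 libraries and adjusted by Benjamini-Hochberg over 4 measures. Calls per region or gene cannot pass a threshold in this design and were counted. Named genes were those of the design, the 12 strongest per direction in full and in equal-length lists, the 6 strongest distal regions per direction, and every list member that separated the groups in the full lists. List members that separated at equal length alone, and all genes given as called in 4 libraries, were named after their values were seen. The members and lists were chosen with earlier results of these data known. Scripts ran in Python 3.11.15 with numpy 2.4.6, pandas 2.3.3 and scipy 1.17.1 and were tested on simulated lists. Alternatives were other windows, overlaps, list lengths, thresholds and left-out libraries.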

Additional observations from a re-analysis of the deposited data

How the results depend on the processing

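The differences in peaks, covered length and shared calls kept their direction under every alternative run for it. Leaving out 1 library moved the difference in peaks between 7264.5 and 9710.5, in covered length between 4.25 and 5.65 Mb, in shared calls between −57.7 and −44.7 points and in distal share between 0.57 and 6.19 points. Covered length differed by 1.57 Mb at equal length, against 4.95 Mb in the full lists. The distal share reversed at equal length (−10.8 points), also without distal regions with H3K4me3 in all 3 lists (−8.43 points). Equal length removes no peak from the 1-allele replicate 1 list and removes the weaker peaks of the others.

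Separating regions on the 2-allele side numbered 4327, 630 at equal length, 1031 cut to the longer 1-allele list, and 5074 to 7873 with 1 library left out. Their distal share was 27.8%, 25.3% with a window of 2.5 kb, 8.57% at equal length, 7.84% there without distal regions with H3K4me3 in all 3 lists, 13.8% cut to the longer 1-allele list, 31.7% when peaks within 500 bp were merged, and 23.0% to 37.7% with 1 library left out. On the 1-allele side there were 164 regions, 408 at equal length, 337 cut, 57 without distal regions with H3K4me3 in all 3 lists, and 207 to 588 with 1 library left out. Their distal share was 94.5%, 55.4% at equal length, 72.7% cut, 84.2% without those regions, 32.8% without them at equal length, and 74.0% to 91.3% with 1 library left out. Genes on the 2-allele side numbered 2674, 614 at equal length, 847 cut, and 3086 to 5190 with 1 library left out, the highest without 1-allele replicate 2. Genes on the 1-allele side numbered 8, 176, 83, and 10 to 77, the highest without 1-allele replicate 1. Fewer libraries make the rule easier to meet, and shorter lists hold fewer peaks. The causes of the other shifts were not tested. A stricter q-value of 0.01 left a mean of 6344 of 6371 peaks in the 1-allele lists, so it could move the counts little. This threshold and an overlap of 100 bp moved no count of regions by more than 1.5 times. Of the alternatives for single named genes, 232 left the pattern as it was, 182 moved it and 0 reversed it. These alternatives shortened lists or widened the window, so a gene that separated the groups could move but not reverse. Genes called equally in both groups counted as moved on any change. The absence of reversals was therefore largely fixed in advance. The alternative without distal regions with H3K4me3 in all 3 lists was chosen after seeing the data.

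With the replicate number as a block, the difference of 8487.5 peaks had an exact sign-flip p of 0.5 (n = 2 pairs), the smallest 2 pairs allow, as had covered length (4.95 Mb) and distal share (3.38 points). In the percentiles of regions called in all 4 libraries, same-numbered libraries did not deviate together (r = 0.0015 across 3287 regions). No pairing by number was seen there, but this does not show whether same-numbered libraries were prepared together.

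The 1-allele lists rest on 16.6 M and 9.76 M tags and the depth behind the 2-allele lists is unknown, so a call missing from a list does not show that the mark is missing.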

Other observations

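Some promoters that separated the groups were also strong in glands without floxed Arid1a. The Mdm4 promoter stood at percentiles 97.8 and 98.3 of the H3K27ac lists of NICD glands, and at 84.8 and 92.1 of the wild-type lists. The Relb promoter stood at 92.8 and 80.8 with NICD, against 69.5 and 75.1 of the wild-type lists. Ccne1 had no promoter peak with NICD alone, and among wild-type libraries replicate 1 called it, at percentile 23.1. Genes were picked for this paragraph after their values were seen.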
